A study of Mus musculus with 19 samples.

Results

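The 6 genes Eef1a1, Eef1a2, Eef1b2, Eef1d, Eef1g and Eef2 encode the core factors of translation elongation, and they are 6 of the 22193 genes listed in the deposited tables. They were picked by name, with their values in these libraries already known, so the levels and differences of these 6 genes are given as a description and without a test. The libraries are from whole cerebella of 19 C57BL/6 mice, each 60 days old. The Ctrl group held 3 wild-type mice. The Olig1-Gnas group held 8 mice in which Gsα, the G protein subunit encoded by Gnas, was conditionally knocked out by the Cre line Olig1Cre, and the hGFAP-Gnas group held 8 mice with the same knockout driven by hGFAPCre. Cre in these lines follows promoters used to reach oligodendrocyte lineage cells (Olig1) and neural progenitors and astrocytes (human GFAP), while the RNA came from the tissue, which holds recombined and unrecombined cells together. By its title the series concerns Gsα in medulloblastoma, a cerebellar tumor, of the Sonic hedgehog type, and the deposited table of hGFAP-Gnas carries the word tumor in its name. Both knockouts were set against the same 3 Ctrl mice, so the 2 comparisons are not independent of each other.

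During elongation, eEF1A in its GTP form carries each aminoacyl-tRNA to the ribosome, the eEF1B complex recharges it with GTP, and eEF2 moves the ribosome along the messenger RNA. Mammals have a pair of eEF1A genes. Eef1a1 is active in most cells and in dividing cells, whereas Eef1a2 is the form of mature neurons and of muscle, where it takes the place of Eef1a1 during postnatal maturation.

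Because the report turns on this pair, a stretch of their coding sequences shows how far reads can tell them apart. In GENCODE vM21 transcripts the coding sequences of Eef1a1 (1389 bases) and Eef1a2 (1392 bases) are identical at 1113 of 1389 aligned bases (80.1%), and the longest identical run is 23 bases. The window of 60 bases with the most differences, bases 643 to 702 of each coding sequence, holds 22 of them, printed in capitals.
Eef1a1: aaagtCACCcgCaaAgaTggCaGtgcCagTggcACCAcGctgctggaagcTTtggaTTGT
Eef1a2: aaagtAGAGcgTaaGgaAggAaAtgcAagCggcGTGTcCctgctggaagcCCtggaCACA
The differences are spread along the stretch, so a read longer than the longest shared run meets at least 1 of them anywhere in the aligned coding sequence.

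Eef1a1 has closer copies than Eef1a2. Over at least 300 aligned bases, its coding sequence matched transcripts of 31 annotated genes, itself included, and 29 of them are pseudogenes. Of these 29, Gm6548 alone is in the deposited tables, a processed pseudogene 96.7% identical to Eef1a1 over 1166 bases. Gm6548 was listed at 71.3 ± 3.96 FPKM in Ctrl (SD, n = 3), 444 ± 82.7 FPKM in Olig1-Gnas (SD, n = 8) and 318 ± 133 FPKM in hGFAP-Gnas (SD, n = 8). FPKM is the number of fragments per length of transcript, scaled to the mapped fragments of the library. In every library it stood at nearly the same share of Eef1a1, from 10.6 to 11.0% for Ctrl, from 10.1 to 10.7% for Olig1-Gnas and from 10.1 to 11.0% for hGFAP-Gnas. How reads were divided between Eef1a1 and its near copies is not known. The absolute level of Eef1a1 is therefore uncertain, by an amount that these values do not give.

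The starts of the pair are shown because the genes moved in opposite directions, with that of Eef2 for comparison. RefSeq promoter sequences (GRCm38.p6) were found for 4 of the 6 genes. Each line gives 60 bases before the annotated start and the first 30 bases after it, read on the gene's own strand. The capitals mark matches, searched on both strands, to TATAA (letters of a TATA box), CACGTG (an E-box), TGACGTCA (a cAMP response element) or GACCACCCA (a GLI site). None of the matches overlapped another.
Eef1a1, chr9:78481695-78481784, minus strand: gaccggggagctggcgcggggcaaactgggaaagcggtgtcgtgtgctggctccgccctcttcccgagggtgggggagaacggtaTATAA
Eef1a2, chr2:181156986-181157075, minus strand: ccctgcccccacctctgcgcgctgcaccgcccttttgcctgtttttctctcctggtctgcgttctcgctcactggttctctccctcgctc
Eef2, chr10:81176571-81176660, plus strand: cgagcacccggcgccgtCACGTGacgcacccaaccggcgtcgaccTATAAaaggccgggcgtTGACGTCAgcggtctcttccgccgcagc
The Eef1a1 window held TATAA from base 26 after the start. The Eef2 window held CACGTG 43 bases and TATAA 15 bases before the start, and TGACGTCA from base 3 after it. Neither Eef1a2 nor Eef1b2 (chr1:63176771-63176860, plus strand) had a match in the whole RefSeq window of 300 bases. Of 32851 such windows, 24.9% held TATAA, 7.15% CACGTG, 1.79% TGACGTCA and 0.253% GACCACCCA. These matches describe letters only, and a window without one says nothing of a factor's binding.

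The values came as FPKM, so the number of reads behind a value is not known. Relative depth, inferred from genes with few fragments, put 10 libraries at 0.841 to 1.06 times Ctrl 2 and 9 libraries at 0.270 to 0.432 times. The shallower 9 are Ctrl 3, the first 4 of Olig1-Gnas and hGFAP-Gnas 5 to 8. FPKM summed over all genes came to between 508329 and 525832 for Ctrl, between 603067 and 689165 for Olig1-Gnas and between 505739 and 659634 for hGFAP-Gnas. The median log2 difference from Ctrl over all tested genes was 0.22 for Olig1-Gnas and 0.19 for hGFAP-Gnas. After upper quartile scaling each of these medians was 0.04. Gnas, the knocked-out gene, does not check the labels, since a listed 0 may be a failed estimate in any group. In the table of Olig1-Gnas it was at 651 and 798 FPKM in Ctrl 1 and 2 and at 0 in Ctrl 3, and it was at 0 in 3 of 8 knockout libraries and at most 121 FPKM in the others. In the table of hGFAP-Gnas, where Ctrl 1 too is listed at 0, 7 of 8 knockout libraries are at 0 and the other is at 40.9 FPKM. The library labelled hGFAP-Gnas 1 stood apart from the other 7 of its group and near Ctrl in many of the values below. Granule neuron markers, which define the most numerous neuron of the cerebellum, were present in all Ctrl libraries, with Gabra6, a GABA receptor subunit, at 354 ± 123 FPKM (SD, n = 3) and Cbln1, a synapse organizer, at 425 ± 44.7 FPKM (SD, n = 3).

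In wild-type cerebellum both eEF1A genes were listed at nearly the same level per length, with the level of Eef1a1 uncertain as described above. Eef1a1 lies on mouse chromosome 9 at chr9:78326260-78329531 (mm9). It stood at 619, 685 and 663 FPKM in Ctrl 1, 2 and 3. In Olig1-Gnas the lowest, median and highest libraries held 3358, 4193 and 5736 FPKM, and in hGFAP-Gnas 711, 2951 and 4608 FPKM. All 16 knockout libraries therefore lay above all 3 Ctrl libraries, though hGFAP-Gnas 1, at 711 FPKM, lay just above them and the next lowest of that group was hGFAP-Gnas 7 at 2231 FPKM. The mean was 656 ± 33.5 FPKM in Ctrl (SD, n = 3), 4276 ± 716 FPKM in Olig1-Gnas (SD, n = 8) and 3000 ± 1231 FPKM in hGFAP-Gnas (SD, n = 8), which is 6.52 times and 4.57 times the Ctrl mean. On the log2(FPKM + 1) scale the difference from Ctrl was 2.69 ± 0.15 (SE) in Olig1-Gnas and 2.03 ± 0.49 (SE) in hGFAP-Gnas.

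Eef1a1 also moved up in the order of all listed genes. Ranked by FPKM within a library, its rank was 55 to 65 among Ctrl libraries, 6 to 11 among Olig1-Gnas libraries and 4 to 46 among hGFAP-Gnas libraries, with rank 46 in hGFAP-Gnas 1. It made up 0.119 to 0.135% of the summed FPKM of a Ctrl library, 0.543 to 0.894% of an Olig1-Gnas library and 0.141 to 0.813% of an hGFAP-Gnas library. On this share, too, every knockout library exceeded every Ctrl library.

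Eef1a2, at chr2:180882396-180891720 (mm9), went the other way. It stood at 538, 651 and 528 FPKM in Ctrl 1, 2 and 3. Olig1-Gnas libraries held 12.3, 8.63, 3.74, 8.40, 10.7, 39.2, 114 and 110 FPKM in replicates 1 to 8. In hGFAP-Gnas replicates 1 to 8 the values were 436, 330, 24.8, 49.8, 27.7, 42.1, 269 and 108 FPKM. All 16 knockout libraries lay below all 3 Ctrl libraries, but the spread among them was wide. Olig1-Gnas 7 and 8 were the highest of their group, Olig1-Gnas 6 lay between them and the lowest 5, and hGFAP-Gnas 1, 2 and 7 kept more Eef1a2 than the other 5 of theirs.

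The group means of Eef1a2 were 572 ± 68.3 FPKM in Ctrl (SD, n = 3), 38.5 ± 46.9 FPKM in Olig1-Gnas (SD, n = 8) and 161 ± 161 FPKM in hGFAP-Gnas (SD, n = 8). The Ctrl mean was 14.9 times that of Olig1-Gnas and 3.55 times that of hGFAP-Gnas. The log2 difference from Ctrl was -4.78 ± 0.98 (SE) in Olig1-Gnas and -2.58 ± 0.88 (SE) in hGFAP-Gnas. Within the deeper libraries the Olig1-Gnas difference was -3.58, and within the shallower ones -5.93, with both of the Olig1-Gnas libraries richest in Eef1a2 among the deeper, and with depth class as a term it was -4.46. In rank by FPKM the gene stood between 57 and 81 in Ctrl, between 819 and 10440 in Olig1-Gnas and between 101 and 4821 in hGFAP-Gnas. In bulk tissue, fewer cells of a type and less RNA per cell cannot be told apart.

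**Figure D1:**
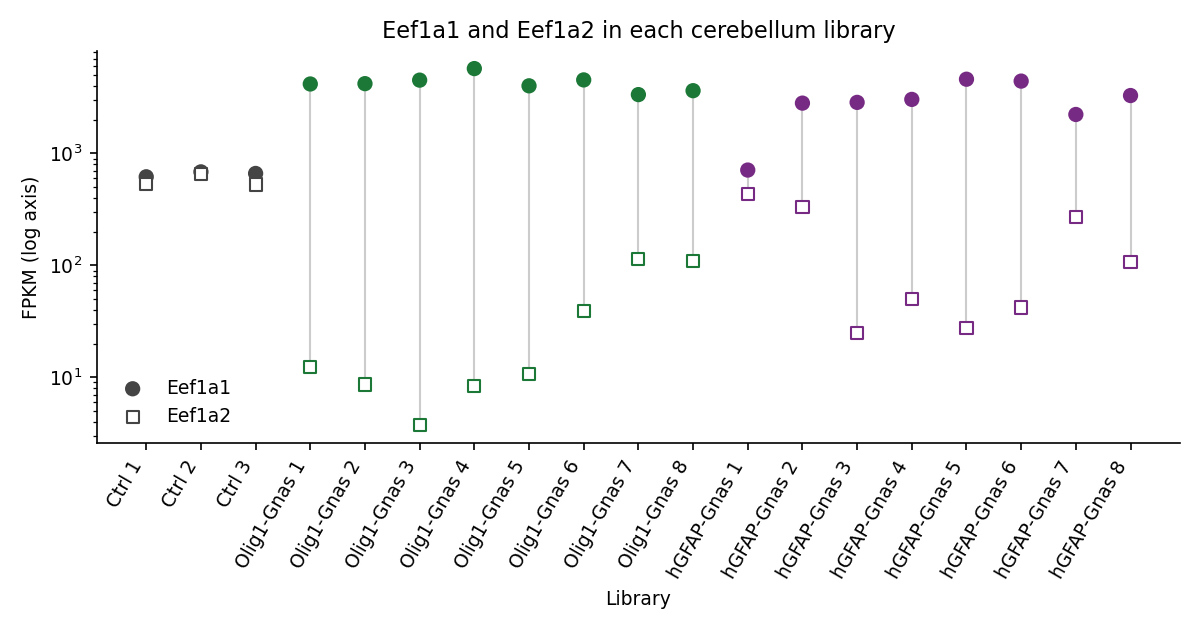
Level of Eef1a1 (filled circles) and Eef1a2 (open squares) in each of the 19 libraries, in FPKM on a log axis, by group. The symbols lie together in the 3 Ctrl libraries, where Eef1a1 holds 619 to 685 FPKM and Eef1a2 528 to 651 FPKM, and lie apart in the knockout libraries other than hGFAP-Gnas 1.

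The plot of both genes by library shows the loss of balance between them. The shares and sums of the pair rest on the listed level of Eef1a1, whose uncertainty is described above. As a share of Eef1a1 plus Eef1a2, Eef1a2 made up 46.5, 48.7 and 44.3% in Ctrl 1, 2 and 3. In Olig1-Gnas the share ran from 0.0825% in replicate 3 through a median of 0.280% to 3.29% in replicate 7. In hGFAP-Gnas it ran from 0.597% in replicate 5 through a median of 2.40% to 38.0% in replicate 1, with replicates 2 and 7 at 10.5 and 10.7%. No knockout library reached the range of Ctrl.

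The mean share was 46.5 ± 2.19% in Ctrl (SD, n = 3), 1.01 ± 1.32% in Olig1-Gnas (SD, n = 8) and 8.30 ± 12.7% in hGFAP-Gnas (SD, n = 8). The mean of hGFAP-Gnas was drawn up by replicate 1: the share in Olig1-Gnas minus that in hGFAP-Gnas was -7.29 percentage points with all libraries and -3.05 without hGFAP-Gnas 1. The sum of both genes was 1228 ± 95.1 FPKM in Ctrl (SD, n = 3), 4314 ± 686 FPKM in Olig1-Gnas (SD, n = 8) and 3161 ± 1104 FPKM in hGFAP-Gnas (SD, n = 8). The sum exceeded the highest Ctrl library, at 1336 FPKM, in all 8 Olig1-Gnas libraries and in 7 of 8 hGFAP-Gnas libraries. hGFAP-Gnas 1, at 1147 FPKM, lay below the lowest Ctrl library, at 1157 FPKM.

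The guanine exchange complex eEF1B, which returns eEF1A to its GTP form, has its subunits encoded by Eef1b2 (chr1:63223404-63227060, mm9), Eef1d (chr15:75725229-75739770) and Eef1g (chr19:9041530-9052670). Eef1b2, a catalytic subunit, stood at 53.7, 56.0 and 45.4 FPKM in Ctrl 1, 2 and 3. Its lowest, median and highest values were 215, 237 and 347 FPKM in Olig1-Gnas and 50.0, 165 and 210 FPKM in hGFAP-Gnas. The Olig1-Gnas libraries all lay above Ctrl and above every hGFAP-Gnas library, while hGFAP-Gnas 1 lay inside the Ctrl range. The log2 difference from Ctrl was 2.27 ± 0.15 (SE) in Olig1-Gnas and 1.42 ± 0.38 (SE) in hGFAP-Gnas.

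Eef1d, the other catalytic subunit, was the most even in Ctrl, at 30.3, 29.8 and 30.6 FPKM in replicates 1, 2 and 3. Its lowest, median and highest values were 60.3, 74.8 and 100 FPKM in Olig1-Gnas and 45.3, 55.4 and 81.6 FPKM in hGFAP-Gnas. Here no knockout library overlapped Ctrl, and hGFAP-Gnas 1, at 54.6 FPKM, lay in the middle of its group. The log2 difference from Ctrl was 1.30 ± 0.15 (SE) in Olig1-Gnas and 0.95 ± 0.18 (SE) in hGFAP-Gnas.

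Eef1g, the structural subunit, stood at 95.0, 115 and 114 FPKM in Ctrl 1, 2 and 3. Its lowest, median and highest values were 168, 298 and 517 FPKM in Olig1-Gnas and 101, 206 and 267 FPKM in hGFAP-Gnas. All Olig1-Gnas libraries exceeded Ctrl, and in hGFAP-Gnas replicate 1 alone fell inside the Ctrl range. The log2 difference from Ctrl was 1.44 ± 0.25 (SE) in Olig1-Gnas and 0.87 ± 0.27 (SE) in hGFAP-Gnas.

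Eef2, the translocase (chr10:80639375-80645254, mm9), was in Ctrl the most abundant of the 6 genes after the eEF1A pair. It stood at 382, 461 and 430 FPKM in Ctrl 1, 2 and 3. Its lowest, median and highest values were 815, 1086 and 1609 FPKM in Olig1-Gnas and 412, 808 and 1247 FPKM in hGFAP-Gnas. As with Eef1b2 and Eef1g, hGFAP-Gnas 1 was the only knockout library within the Ctrl range. The log2 difference from Ctrl was 1.35 ± 0.18 (SE) in Olig1-Gnas and 0.95 ± 0.31 (SE) in hGFAP-Gnas.

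**Figure D2:**
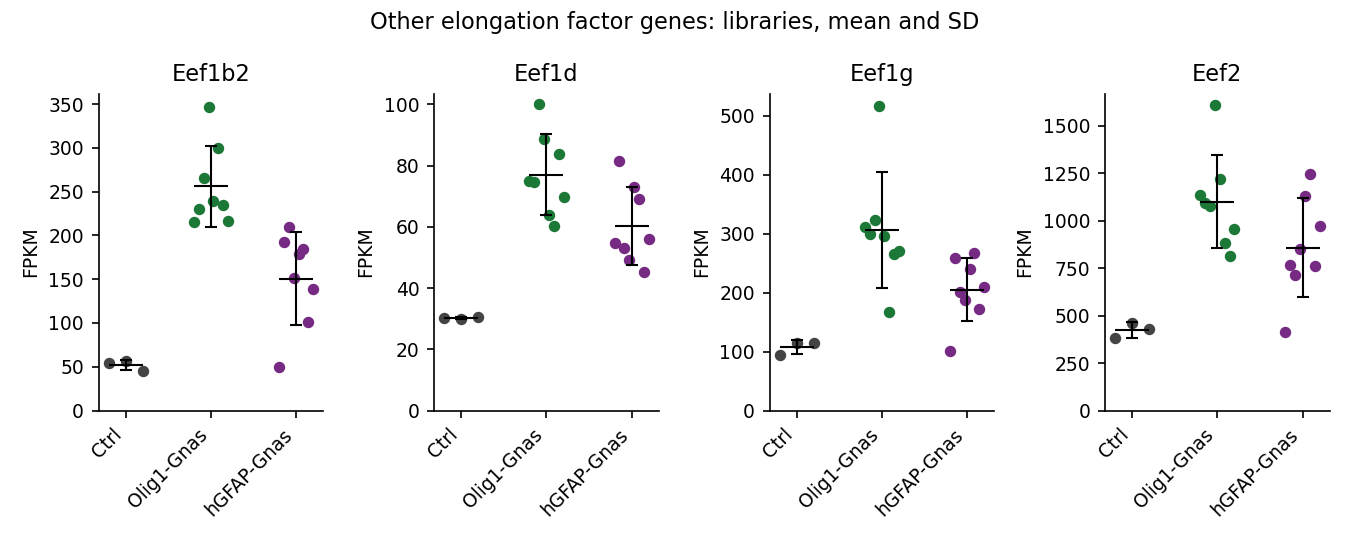
FPKM of Eef1b2, Eef1d, Eef1g and Eef2 in each library of Ctrl (n = 3), Olig1-Gnas (n = 8) and hGFAP-Gnas (n = 8), with the group mean and SD. In each panel the Olig1-Gnas libraries lie above Ctrl, and a single hGFAP-Gnas library lies at the Ctrl level for Eef1b2, Eef1g and Eef2.

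The 5 genes that were higher did not keep one proportion to each other. The ratio of group means to Ctrl was 6.52 for Eef1a1, 4.95 for Eef1b2, 2.83 for Eef1g, 2.59 for Eef2 and 2.55 for Eef1d in Olig1-Gnas. In hGFAP-Gnas it was 4.57 for Eef1a1, 2.91 for Eef1b2, 2.02 for Eef2, 2.0 for Eef1d and 1.90 for Eef1g. Eef1a1 came first and Eef1b2 second in both knockouts, and the other 3 lay close together, within 1 SE of each other on the log2 scale.

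Set against listed total eEF1A, which carries the same uncertainty of Eef1a1, the partners held different shares. Eef2 equaled 34.5 ± 1.57% of Eef1a1 plus Eef1a2 in Ctrl (SD, n = 3), 25.4 ± 3.32% in Olig1-Gnas and 28.0 ± 3.91% in hGFAP-Gnas (SD, n = 8 each). Eef1b2 equaled 4.22 ± 0.415% in Ctrl, 5.94 ± 0.530% in Olig1-Gnas and 4.84 ± 1.22% in hGFAP-Gnas. Eef1g equaled 8.80 ± 0.717% in Ctrl, 7.06 ± 1.51% in Olig1-Gnas and 6.79 ± 1.21% in hGFAP-Gnas. Eef1d equaled 2.47 ± 0.210% in Ctrl, 1.81 ± 0.358% in Olig1-Gnas and 2.17 ± 1.10% in hGFAP-Gnas. Between Ctrl and Olig1-Gnas the mean shares of Eef2, Eef1g and Eef1d were lower and that of Eef1b2 higher, each by more than the SD of either group.

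For scale, all 6 genes passed an adjusted p under 0.05 of limma in both comparisons with Ctrl, 5 higher and 1 lower. Over all genes, 59.8% of 14183 tested passed in Olig1-Gnas (36.2% higher, 23.6% lower) and 38.9% of 14305 in hGFAP-Gnas (26.1% higher, 12.8% lower). The groups did not overlap for 6 of the 6 genes in Olig1-Gnas, where 32.2% of all genes were higher and 21.5% lower without overlap, and for 3 of the 6 in hGFAP-Gnas, where the shares were 15.2% and 8.56%. Since the genes were chosen with these values known, nothing is read from their counts.

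Between the knockouts the differences were smaller than those from Ctrl. The log2 difference of Olig1-Gnas from hGFAP-Gnas was 0.66 ± 0.31 (SE) for Eef1a1, -2.20 ± 0.80 for Eef1a2, 0.85 ± 0.24 for Eef1b2, 0.36 ± 0.14 for Eef1d, 0.57 ± 0.22 for Eef1g and 0.40 ± 0.21 for Eef2. At a limma adjusted p under 0.05, 0.410% of 14386 genes tested were called, and 0 of the 6 were. Eef1b2 was the only one of the 6 whose libraries did not overlap between the knockouts, which held for 0.306% of all genes in the higher and 0.292% in the lower direction. hGFAP-Gnas 1 weighed on these values: without it the difference was 0.39 for Eef1a1 and 0.26 for Eef2. Within the deeper libraries alone the difference was -1.24 for Eef1a2 and 0.92 for Eef1a1, and within the shallower ones -3.16 and 0.40. These subsets hold different mice. Each knockout group has as many deeper as shallower libraries, so adding depth class as a term cannot change the differences of -2.20 and 0.66. That fit is therefore no check on depth.

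Levels of granule neuron and cell division markers differed between the groups along with the eEF1A pair, but within a group their order matched only in part. The summed FPKM of 8 granule neuron markers was 1512 to 1978 in Ctrl. In Olig1-Gnas replicates 1 to 8 it was 90.7, 70.0, 47.9, 69.0, 78.6, 47.1, 431 and 423. In hGFAP-Gnas replicates 1 to 8 it was 1312, 752, 89.0, 115, 124, 127, 878 and 353. The libraries with most Eef1a2, hGFAP-Gnas 1, 2 and 7 and Olig1-Gnas 7 and 8, were also those with the highest sums in their groups. Olig1-Gnas 6 went otherwise, with 39.2 FPKM of Eef1a2 at the lowest sum of its group. All 8 of these markers were called lower in Olig1-Gnas and 7 of 8 in hGFAP-Gnas. Eef1a2 equaled 27.2 to 34.9% of this sum in Ctrl and 22.4 to 44.0% in hGFAP-Gnas. In Olig1-Gnas it equaled 26.5 and 26.1% in replicates 7 and 8, 7.80 to 13.7% in replicates 1 to 5, and 83.1% in replicate 6.

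The summed FPKM of 8 cell division markers was 6.33 to 6.84 in Ctrl. In Olig1-Gnas replicates 1 to 8 it was 783, 818, 1249, 1000, 812, 1056, 740 and 608. In hGFAP-Gnas replicates 1 to 8 it was 21.8, 437, 611, 557, 855, 869, 325 and 640. The hGFAP-Gnas libraries with most Eef1a1, replicates 5 and 6, had the highest sums, and replicates 1 and 7, with least Eef1a1, the lowest. In Olig1-Gnas the order was not the same: Eef1a1 was highest in replicate 4 and lowest in replicate 7, and the sum was highest in replicate 3 and lowest in replicate 8. All 8 division markers were called higher in both knockouts, among them Mki67, from 0.243 ± 0.0727 FPKM in Ctrl (SD, n = 3) to 156 ± 62.5 FPKM in Olig1-Gnas (SD, n = 8), and Top2a, from 0.308 ± 0.0412 to 163 ± 49.6 FPKM. The part of these cell markers in the levels of Eef1a1 and Eef1a2 was not tested.

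**Figure D3:**
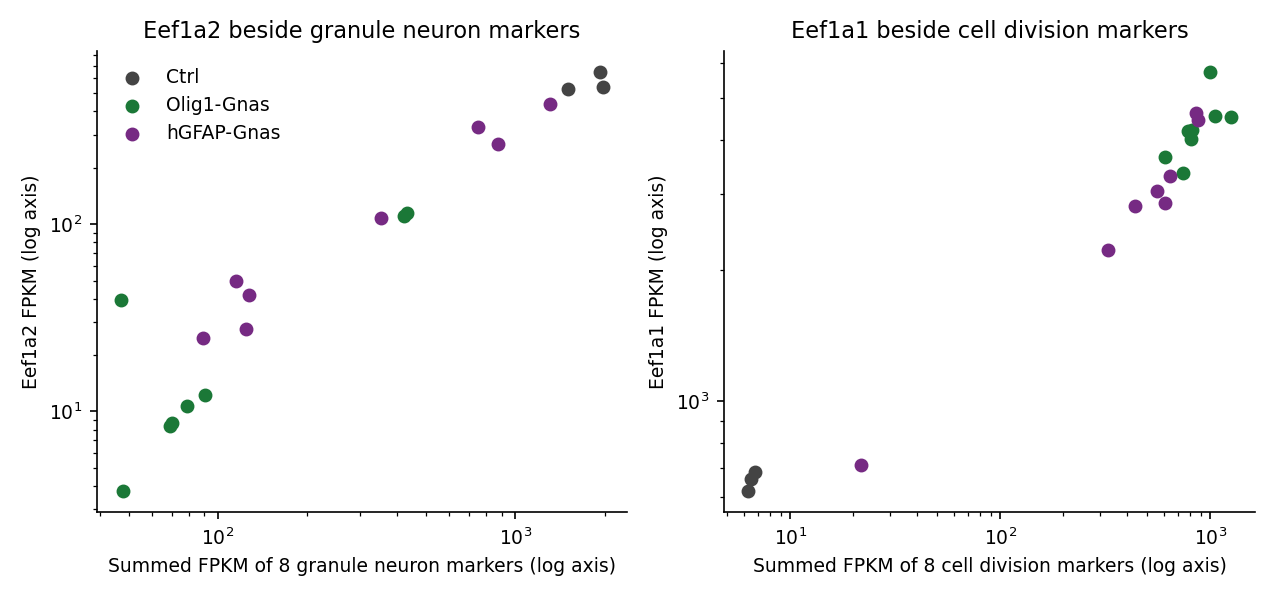
Left, Eef1a2 against the summed FPKM of 8 granule neuron markers, and right, Eef1a1 against the summed FPKM of 8 cell division markers, 1 point per library, with log axes. Along the horizontal axis the Ctrl libraries lie at 1512 to 1978 in the left panel and at 6.33 to 6.84 in the right one, and hGFAP-Gnas 1 lies nearest to them in both panels.

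Markers of other cell types differed between the groups as well. The 8 Purkinje cell markers summed to between 2481 and 3886 FPKM for Ctrl, between 23.3 and 715 FPKM for Olig1-Gnas and between 111 and 1956 FPKM for hGFAP-Gnas. Granule progenitor markers summed to 27.7 to 34.2, 877 to 1779 and 68.1 to 1374 FPKM, and microglia markers to 58.5 to 88.9, 480 to 1756 and 121 to 1065 FPKM, in the same order of groups. Oligodendrocyte markers summed to 876 to 1112, 22.3 to 294 and 154 to 938 FPKM, and Bergmann glia and astrocyte markers to 2571 to 3334, 265 to 1490 and 940 to 3011 FPKM. The last list was split: 1 of its 8 markers was called higher and 5 lower in Olig1-Gnas, and 1 higher and 3 lower in hGFAP-Gnas. The one called higher was Gfap, the filament gene of astrocytes, at 54.5 ± 6.63 FPKM in Ctrl (SD, n = 3), 244 ± 153 FPKM in Olig1-Gnas and 526 ± 287 FPKM in hGFAP-Gnas (SD, n = 8 each), while Gdf10, of Bergmann glia, averaged 110, 14.2 and 64.9 FPKM. The marker genes Calb1 and Pcp2 of Purkinje cells averaged 344 and 845 FPKM for Ctrl, 16.8 and 66.6 FPKM for Olig1-Gnas and 76.3 and 217 FPKM for hGFAP-Gnas. Atoh1 and Barhl1, of granule progenitors, averaged 0.104 and 4.08 FPKM for Ctrl, 92.2 and 132 FPKM for Olig1-Gnas and 59.4 and 106 FPKM for hGFAP-Gnas. Mog and Mag, of oligodendrocytes, averaged 35.4 and 68.7 FPKM for Ctrl, 2.79 and 6.65 FPKM for Olig1-Gnas and 16.2 and 31.2 FPKM for hGFAP-Gnas. All 8 oligodendrocyte markers were called lower in Olig1-Gnas, but in hGFAP-Gnas 2 were called lower and 6 were not called. Cd68 and C1qa, of microglia, averaged 3.63 and 17.1 FPKM for Ctrl, 67.7 and 231 FPKM for Olig1-Gnas and 56.4 and 184 FPKM for hGFAP-Gnas. Of skeletal muscle, another tissue of Eef1a2, 8 markers summed to 5.08 to 12.5, 6.94 to 27.2 and 5.12 to 11.9 FPKM, and 3 of them reached the level needed for the test. Acta1, of the thin filament, was the one called higher in Olig1-Gnas, by 0.72 ± 0.25 (SE, limma adjusted p = 0.0252), and Ckm, muscle creatine kinase, averaged 0.205, 0.314 and 0.134 FPKM. In hGFAP-Gnas 0 of these markers were called higher and 1 lower. Tnnt3 went down, with averages of 3.22, 0.842 and 0.609 FPKM. Its Ctrl average, with Ctrl 1 listed at 0, is that of the table of Olig1-Gnas. The hGFAP-Gnas fit used the Ctrl columns of its own table, where Ctrl 1 may differ. Myh4 and Myog were the 2 listed at 0 in all Ctrl libraries, and Myog was listed at 3.21 and 5.32 FPKM for Olig1-Gnas 1 and 2.

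The genes whose pattern was most like that of each eEF1A gene were found over the 16 knockout libraries, after the mean of each knockout group was subtracted, among 8754 genes. Gm6548 came first for Eef1a1, with a Pearson correlation of 0.998, which is that of the near copy described above. Next were Rrm1, a subunit of ribonucleotide reductase, at 0.987, Mcm5, of the replicative helicase, at 0.987, Dlgap5, a spindle protein gene, at 0.982, and Kif11, a mitotic kinesin gene, at 0.982. For Eef1a2 they were 6030419C18Rik at 0.985, 1500009C09Rik at 0.979, Tmem59l at 0.975, Faim2 at 0.975 and Elmod1 at 0.975. Tmem59l, the most abundant of these, stood at 241 ± 43.0 FPKM in Ctrl (SD, n = 3), 17.7 ± 21.0 FPKM in Olig1-Gnas and 57.7 ± 59.7 FPKM in hGFAP-Gnas (SD, n = 8 each). The correlation of Eef1a1 with Eef1a2 on the same scale was -0.600. The points of these correlations share their libraries, depth and cell makeup, and hGFAP-Gnas 1 is among them.

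The remaining genes of translation were followed with 6 lists of 95 genes, of which 94 are in the tables, 7 of these for mitochondrial translation. None of the 6 elongation factors described above is among them, and limma's adjusted p-values over all tested genes apply to those named here. In Olig1-Gnas 63 of the 94 genes rose, 4 fell and 27 did not pass the test, beside 36.2% higher and 23.6% lower over all genes, and their median log2 difference was 0.77 against 0.22 for all genes tested. In hGFAP-Gnas 40 rose, 3 fell and 51 did not pass, beside 26.1% and 12.8%, with a median of 0.55 against 0.19. The split by direction moved with scaling. In Olig1-Gnas 69 were called after quantile normalization, 60 of them higher, and 66 after upper quartile scaling, 57 of them higher. In hGFAP-Gnas each scaling gave 36 called, 30 of them higher. The hGFAP-Gnas count rests on single libraries: 43 genes passed with all libraries, 2 without Ctrl 1, 2 without Ctrl 2, 7 without Ctrl 3, 27 without hGFAP-Gnas 4 and 70 without hGFAP-Gnas 1. By limma 0 passed within the deeper libraries (10 genes at an unadjusted p under 0.05), and 11 within the shallower ones.

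Among other elongation genes, Eif5a, whose protein helps the ribosome past stretches of proline, stood at 140 ± 21.9 FPKM in Ctrl (SD, n = 3) and 419 ± 61.8 FPKM in Olig1-Gnas (SD, n = 8). It rose by 1.57 ± 0.14 (SE, limma adjusted p = 2.62e-06) on the log2 scale, and by 1.06 ± 0.34 (SE, limma adjusted p = 0.0306) in hGFAP-Gnas. Its paralog Eif5a2 went from 18.0 ± 2.15 FPKM to 9.62 ± 3.70 FPKM, a log2 difference of -0.90 ± 0.27 (SE, limma adjusted p = 0.0128), and of -0.70 ± 0.22 (SE, limma adjusted p = 0.0291) in hGFAP-Gnas. This list of 5 genes held 4 higher and 1 lower in Olig1-Gnas, and 1 higher and 1 lower in hGFAP-Gnas. The shares over all genes were 36.2% and 23.6%, and 26.1% and 12.8%, and nothing is read from so few genes. Eef1e1, an eEF1-related subunit of the multisynthetase complex, and Tpt1 rose in Olig1-Gnas, by 0.88 ± 0.20 and 1.19 ± 0.32 (limma adjusted p = 0.00259 and 0.00725). Without Ctrl 3 the calls of Eif5a2 and Tpt1 in Olig1-Gnas were lost.

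Of the 12 genes that modify or regulate the elongation factors, 5 rose in Olig1-Gnas and 2 in hGFAP-Gnas, and none fell. Over all genes 36.2% and 26.1% were higher, so the counts higher do not set this list apart. Dph5 and Dph6 (listed as Atpbd4), which build the diphthamide residue of eEF2, rose in Olig1-Gnas by 0.89 ± 0.18 and 0.95 ± 0.25 (limma adjusted p = 9.53e-04 and 0.0063). Mettl13, which methylates eEF1A, rose by 0.97 ± 0.21 in Olig1-Gnas and 0.76 ± 0.24 in hGFAP-Gnas (limma adjusted p = 0.0015 and 0.0286). Eef2k, the kinase that inhibits eEF2, stood at 21.9 ± 2.82 FPKM in Ctrl (SD, n = 3), 17.7 ± 2.24 FPKM in Olig1-Gnas and 21.3 ± 2.87 FPKM in hGFAP-Gnas (SD, n = 8 each). Its log2 differences of -0.30 ± 0.14 and -0.04 ± 0.14 did not pass the test (limma adjusted p = 0.0825 and 0.844), but after upper quartile scaling Eef2k was called lower in Olig1-Gnas, at -0.48.

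Of 42 genes listed for initiation and its control, 34 rose and 2 fell in Olig1-Gnas, and 22 rose and 1 fell in hGFAP-Gnas. The shares over all genes were 36.2% higher and 23.6% lower in Olig1-Gnas, and 26.1% and 12.8% in hGFAP-Gnas. Eif4ebp1, which encodes a repressor of the cap-binding protein, had the largest rise among the initiation genes named here, from 1.5 ± 0.520 FPKM in Ctrl (SD, n = 3) to 24.4 ± 4.78 FPKM in Olig1-Gnas and 18.0 ± 11.2 FPKM in hGFAP-Gnas (SD, n = 8 each), a log2 difference of 3.35 ± 0.19 and 2.65 ± 0.59 (limma adjusted p = 4.57e-08 and 0.0103). The paralogs of the helicase eIF4A moved apart. Eif4a1 went from 91.2 ± 11.0 FPKM in Ctrl to 575 ± 154 FPKM in Olig1-Gnas and 389 ± 146 FPKM in hGFAP-Gnas, or by 2.61 ± 0.21 and 1.94 ± 0.45 on the log2 scale (limma adjusted p = 9.59e-07 and 0.012). Eif4a2 went from 224 ± 17.1 FPKM to 129 ± 28.3 FPKM and 135 ± 41.2 FPKM, a log2 difference of -0.83 ± 0.18 and -0.78 ± 0.26 (limma adjusted p = 0.00207 and 0.0364). Pabpc1, for the main cytoplasmic poly(A) binding protein, rose by 2.16 ± 0.22 and 1.75 ± 0.40 (limma adjusted p = 6.70e-06 and 0.0112). Eif1b, the other gene that fell in Olig1-Gnas, had -0.41 ± 0.17 (limma adjusted p = 0.0483) and lost its call without Ctrl 1, Ctrl 2 or any of Olig1-Gnas 1 to 5.

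Of 6 termination and recycling genes, 4 rose and 1 fell in Olig1-Gnas, and 3 rose and 1 fell in hGFAP-Gnas. These few genes stand beside 36.2% higher and 23.6% lower, and 26.1% and 12.8%, over all genes. Etf1, the release factor eRF1, rose by 1.29 ± 0.14 and 0.89 ± 0.22 (limma adjusted p = 1.33e-05 and 0.0147), and Abce1, which splits ribosomes for reuse, by 1.06 ± 0.14 and 0.66 ± 0.23 (limma adjusted p = 6.58e-05 and 0.0434). Hbs1l, of ribosome rescue, rose by 0.57 ± 0.12 and 0.43 ± 0.15 (limma adjusted p = 0.00152 and 0.0388). The paralogs of eRF3 again took opposite signs. Gspt1 had 0.54 ± 0.13 in Olig1-Gnas (limma adjusted p = 0.00312) and 0.39 ± 0.16 in hGFAP-Gnas, which did not pass (limma adjusted p = 0.0707). Gspt2 had -1.24 ± 0.42 and -0.51 ± 0.17 (limma adjusted p = 0.0227 and 0.0352), and its Olig1-Gnas call was lost without any one of the 3 Ctrl libraries.

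Cytosolic aminoacyl-tRNA synthetases load the tRNAs that eEF1A carries. Their list of 22 genes also holds Aimp1 and Aimp2, which encode other subunits of the multisynthetase complex and no synthetase. Of the 22, 16 rose in Olig1-Gnas and 12 in hGFAP-Gnas, and none fell. The shares over all genes were 36.2% higher and 23.6% lower, and 26.1% and 12.8%, in the same order. Gars, for glycine, rose by 1.28 ± 0.12 and 0.89 ± 0.25 (limma adjusted p = 3.41e-06 and 0.0198), and Kars, for lysine, by 1.27 ± 0.14 and 0.89 ± 0.26 (limma adjusted p = 1.64e-05 and 0.0237). Lars, for leucine, rose by 1.21 ± 0.23 and 1.05 ± 0.31 (limma adjusted p = 7.18e-04 and 0.024), and Tars, for threonine, by 1.18 ± 0.19 and 0.96 ± 0.29 (limma adjusted p = 2.09e-04 and 0.0249). None of the 7 genes of mitochondrial translation passed in either knockout, with 0 and 1 of them at an unadjusted limma p under 0.05. Tufm, the mitochondrial counterpart of eEF1A, stood at 34.8 ± 2.06 FPKM in Ctrl (SD, n = 3), 40.5 ± 10.8 FPKM in Olig1-Gnas and 35.4 ± 8.06 FPKM in hGFAP-Gnas (SD, n = 8 each). Without Olig1-Gnas 6, whose 15.8 FPKM is the lowest value, Tufm was called higher in Olig1-Gnas, at 0.33. It gained this call with the replicate block and within the shallower libraries as well. Between the knockouts none of the 94 genes passed, with 23 at an unadjusted limma p under 0.05.

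**Figure D4:**
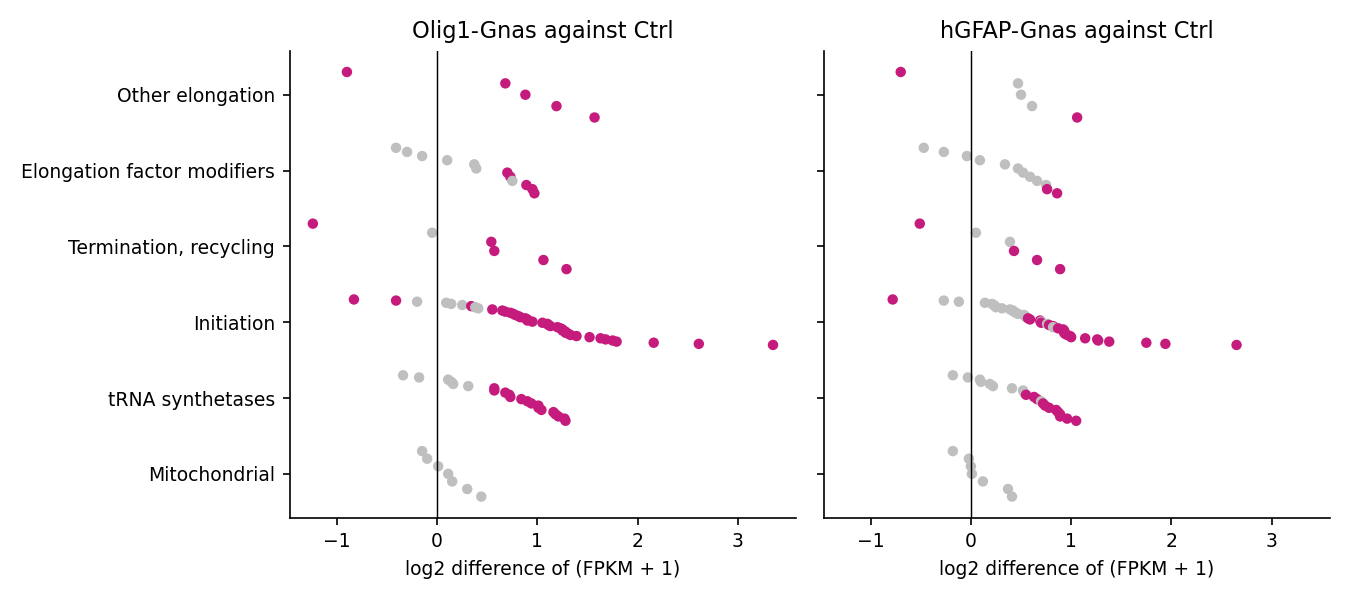
Log2 difference from Ctrl of each gene in the 6 translation lists, for Olig1-Gnas on the left and hGFAP-Gnas on the right, with genes at a limma adjusted p under 0.05 in magenta and the others in grey, and points spread by height within a list only to keep them apart. Most points of the initiation and tRNA synthetase lists lie to the right of 0, and the 7 genes of mitochondrial translation are all grey.

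The paralog pairs of eIF5A, eIF4A and eRF3, named beside the eEF1A pair with earlier results known, had a positive difference for Eif5a, Eif4a1 and Gspt1 and a negative one for Eif5a2, Eif4a2 and Gspt2 in both knockouts. Some other related genes of the initiation list, looked up after their values were seen, had the same sign, and others did not. Eif4e, Eif4e2 and Eif4e3, for cap-binding proteins, rose in Olig1-Gnas by 0.90 ± 0.15, 0.95 ± 0.10 and 1.39 ± 0.19 (SE, limma adjusted p = 2.91e-04, 6.60e-06 and 8.30e-05). Eif1a and Eif1ax rose there by 0.76 ± 0.17 and 0.65 ± 0.14 (limma adjusted p = 0.00252 and 0.0019), and Eif4ebp2 by 0.88 ± 0.28 (limma adjusted p = 0.0167), as Eif4ebp1 did. In hGFAP-Gnas all 6 had positive differences, of 0.43 to 0.96, and Eif4e3 alone passed (limma adjusted p = 0.0446). By contrast, Eif1 averaged 146, 187 and 175 FPKM in Ctrl, Olig1-Gnas and hGFAP-Gnas, and Eif1b 117, 88.2 and 98.4 FPKM. Eif4g3 averaged 64.9, 56.7 and 60.5 FPKM, while Eif4g1 averaged 74.6, 121 and 102 FPKM and Eif4g2 123, 387 and 292 FPKM. The calls of the hGFAP-Gnas side depended on single libraries. Of 16 called translation genes that the naming rule given below picked, 15 lost the call without Ctrl 1 and 15 without Ctrl 2. Another 14 of 16 lost it without Ctrl 3, and none changed sign. In Olig1-Gnas, of 21 called genes picked by that rule, 2, 2 and 3 lost the call without Ctrl 1, 2 and 3. Eif4e3 and the other genes looked up after their values were seen are not in these counts. Within the deeper libraries the Olig1-Gnas calls of Atpbd4, Eef1e1, Eif1b, Eif5a2 and Mettl13 were lost, and within the shallower ones those of Eif1b, Eif5a2, Gspt1, Gspt2 and Tpt1. After quantile normalization the hGFAP-Gnas calls of Abce1, Hbs1l and Mettl13 were lost.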

How the data were processed

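FPKM values of 22193 genes in 19 libraries, 3 Ctrl, 8 Olig1-Gnas and 8 hGFAP-Gnas, were deposited by the authors in 2 tables, with the Ctrl libraries in both. TopHat, Cufflinks and mm9 are named, per the submitters' processing notes, and their versions, the annotation and the read totals are not given in the sources used here. RNA was purified and made into TruSeq libraries, per the labels' protocols. By the series' design text each library is a separate mouse. Blank lines, 43342 in each of them, were dropped. Ctrl 1 differs between the tables in 5106 genes, by at most 0.0730% for the 6 elongation factor genes, and Gnas is among those that differ.

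The fit was limma 3.58.1 (R 4.3.3) on log2(FPKM + 1), with trend and robust options, over genes that reached 1 FPKM in 3 or more libraries. Benjamini-Hochberg adjustment ran over all genes tested, and called means an adjusted p under 0.05. The offset understates the change of low genes. Each knockout was compared with the Ctrl columns of its own table. The code was tested on simulated data. Depth class was taken as deeper or shallower at 0.6 of Ctrl 2.

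The 6 genes, the lists and the tests were chosen with earlier results of these data known, and no explanation was tested. Named were the 6 genes, up to 3 called genes per direction, list and comparison with the largest differences, Eef2k, Tufm and the paralog pairs of Eif5a, Eif4a1 and Gspt1, the first 2 genes of each marker list, and 5 genes most like each eEF1A gene. Further genes, such as Tnnt3, Myh4, Myog and Eif4e, were named outside this rule. Sequences came from RefSeq (GRCm38.p6) and GENCODE vM21, compared with Biopython 1.88 and BLAST. Alternatives changed the offset (0.1), filter (none, or 5 FPKM), scaling, moderation, treatment of zeros, replicate block, depth class, and libraries, leaving out each in turn.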

Additional observations from a re-analysis of the deposited data

Results flagged for a closer look

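In each knockout group of 8 libraries, 38 quantities were searched for a single library far from the other 7, by the ratio of its gap to the range of the group against Dixon's limit at the 95% level. Of 76 groups searched 14 passed. By chance about 1 in 20 passes for independent, normally distributed quantities. Many of these 38 are ratios of one another and all share the same libraries, so the 14 cannot be weighed against that rate. Most came from 3 libraries.

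hGFAP-Gnas 1 held an Eef1a2 share of 38.0% against 0.597 to 10.7% in the other 7. In the same library Eef1d equaled 4.76% of Eef1a1 plus Eef1a2, against 1.55 to 2.59%, the ratio of Eef1d to Eef1g was 0.541, against 0.260 to 0.315, and Eif5a2 stood at 18.3 FPKM, against 7.96 to 12.7.

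Olig1-Gnas 6 held the lowest Eef1g as a share of Eef1a1 plus Eef1a2, 3.66% against 7.09 to 9.0%, and a ratio of Eef1b2 to Eef1g of 1.79 against 0.671 to 0.885. It was also lowest for Atpbd4 (5.81 FPKM against 11.5 to 16.4), Mettl13 (6.31 FPKM against 10.7 to 14.2) and Tufm (15.8 FPKM against 37.5 to 49.9), and highest for Etf1 (80.1 FPKM against 50.0 to 63.3).

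Olig1-Gnas 4 was highest for Eef1g (517 FPKM against 168 to 324), for Gm6548 (616 FPKM against 340 to 470) and for Eif5a (560 FPKM against 361 to 434). Tpt1 stood at 78.2 FPKM in hGFAP-Gnas 2, against 19.4 to 45.3 in the other 7.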

How the results depend on the processing

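Over the alternatives run, no value named here changed sign for Eef1a1, Eef1a2 or the share of Eef1a2. The Eef1a1 difference in Olig1-Gnas was 2.04 after quantile normalization. Leaving out each library in turn gave 2.62 to 2.74 for Eef1a1 and -5.13 to -4.47 for Eef1a2 in Olig1-Gnas, 1.92 to 2.30 and -2.89 to -2.31 in hGFAP-Gnas, and 0.39 to 0.77 and -2.55 to -1.89 between the knockouts. The Eef1a2 share differed by -46.6 to -44.4, -42.4 to -37.1 and -8.39 to -3.05 percentage points in that order. Genes called in Olig1-Gnas numbered 8485, 5141 within the shallower libraries, and 6971 to 9546 without single libraries. In hGFAP-Gnas 5570 were called, 6 within the deeper and 2277 within the shallower libraries, and 818 (without Ctrl 2) to 8164 (without hGFAP-Gnas 1) otherwise. Translation genes called there numbered 43, 0 within the deeper and 11 within the shallower libraries, and 2 to 70 without single libraries. Between the knockouts 59 genes were called, 35 with the filter of 5 FPKM, 3 within the deeper libraries, 166 with depth class as a term, and 11 (without hGFAP-Gnas 8) to 104 (without hGFAP-Gnas 3) otherwise. The cause was not tested. Of 8485 calls in Olig1-Gnas 5134 were higher, 4346 of 8456 after quantile normalization and 4242 of 8291 after upper quartile scaling. In hGFAP-Gnas these were 3738 of 5570, 2719 of 5462 and 3072 of 5588. The depth of reads is unknown, which limits low values such as Eef1a2 in Olig1-Gnas 3.

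With the replicate number as a block, 8394 genes and 69 translation genes were called in Olig1-Gnas, 0 and 0 in hGFAP-Gnas (2654 and 8 at an unadjusted p under 0.05), and 25 and 0 between the knockouts. Only 3 numbers are shared with Ctrl, so the block fits with Ctrl rest on 3 pairs. Deviations of same-numbered libraries correlated at -0.15 to 0.04 for Ctrl and Olig1-Gnas and -0.08 to 0.10 for Ctrl and hGFAP-Gnas. Between the knockouts the correlations were -0.17 to 0.24, with 3 of 8 over 0.1. These few weak values cannot decide whether the numbers pair the mice.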
